A study of Saccharomyces cerevisiae with 8 samples.

Results

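The genes described here make polyphosphate in budding yeast or carry the signal that tells the cell how much phosphate it has. They are SPL2, VTC1, VTC2, VTC3, VTC4, PHM6, PHM8, PHO4, PHO81 and PHO85, taken by name from a deposited table of read counts, and they are 10 of its 6596 gene models. All 10 passed the filter on low counts, which left 6558 models to test. Poly(A) RNA was sequenced from 4 mcd1-1 and 4 wild-type (WT) samples of Saccharomyces cerevisiae, and each group has replicates A, B, C and D. The mutated gene of the mcd1-1 cells, MCD1, codes for the kleisin of cohesin, which keeps the sister chromatids of a dividing cell joined, and the labels do not give its base change. Both groups are derivatives of W303-1a, which is haploid and of mating type a, and were harvested in logarithmic phase in YPD, a rich glucose medium, after 2 generations at 31 °C from a starting optical density of 0.2. The question put to the data is how the mRNA of these 10 genes differs between mcd1-1 and WT cells under those conditions. Nothing in the labels says that the replicates were separate cultures, so a p-value speaks only of the spread among these libraries, which may be technical.

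Yeast stores phosphate in the vacuole as polyphosphate, a chain of phosphate groups. The vacuolar transporter chaperone (VTC) complex builds that chain from ATP and feeds it into the vacuole. Phosphate supply is read by the PHO pathway, in which the kinase Pho85 with its cyclin Pho80 phosphorylates the transcription factor Pho4 when phosphate is plentiful and so keeps it out of the nucleus. When phosphate runs low, the inhibitor Pho81 blocks the kinase, and Pho4 with its partner Pho2 switches on genes for phosphate uptake, phosphatases and polyphosphate synthesis.

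Pho4 binds CACGTG and, less tightly, CACGTT, and the promoters below are shown because 3 of the 10 genes hold the palindrome CACGTG close to the coding start. Each run covers 250 bases before to 50 bases after the start, from the RefSeq genome (R64, the build the submitters name), read 5′ to 3′ on the strand of the gene, with matches to either motif in capitals.
SPL2 (chrVIII:375051-375350, minus strand): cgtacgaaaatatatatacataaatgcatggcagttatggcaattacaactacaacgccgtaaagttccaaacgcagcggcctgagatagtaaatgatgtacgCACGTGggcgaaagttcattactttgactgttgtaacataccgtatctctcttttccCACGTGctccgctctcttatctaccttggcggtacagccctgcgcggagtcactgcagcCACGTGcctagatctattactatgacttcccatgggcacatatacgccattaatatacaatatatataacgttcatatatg
VTC4 (chrX:413350-413649, minus strand): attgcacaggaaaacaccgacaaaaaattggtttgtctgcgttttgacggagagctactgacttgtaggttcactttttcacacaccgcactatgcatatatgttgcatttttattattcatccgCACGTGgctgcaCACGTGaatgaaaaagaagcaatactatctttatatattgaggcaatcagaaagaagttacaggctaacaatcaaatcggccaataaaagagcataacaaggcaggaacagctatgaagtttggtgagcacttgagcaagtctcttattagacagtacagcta
VTC1 (chrV:302556-302855, plus strand): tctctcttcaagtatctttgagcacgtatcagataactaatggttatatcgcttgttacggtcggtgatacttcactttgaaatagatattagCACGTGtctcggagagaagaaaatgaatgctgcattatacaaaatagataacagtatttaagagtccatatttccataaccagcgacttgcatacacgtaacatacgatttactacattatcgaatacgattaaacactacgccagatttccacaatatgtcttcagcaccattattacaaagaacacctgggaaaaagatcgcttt
SPL2 had CACGTG at 31, 90 and 147 bases before the start, VTC4 at 113 and 125 and VTC1 at 157, counting to the first base of the motif. Of 6001 nuclear promoters of this length, 2.92% held CACGTG and 9.12% held CACGTT on either strand. CACGTT was found in this window of PHO81, 8 bases before the start, and of PHO85, 247 bases before it, and the other 5 genes had no match in it.

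A window of 500 bases before the start, added after the first window had been searched, held CACGTG in 7 of the 10 genes, against 6.23% of 6000 promoters. The sites that lay outside the first window, other than the one of SPL2, are shown with 10 bases on each side and the motif in capitals.
VTC3, 345 bases before the start (chrXVI:517358-517363, minus strand): tgcgagggccCACGTGgcttaataca
VTC3, 311 bases before the start (chrXVI:517324-517329, minus strand): cagtcgcaagCACGTGcatgcgattt
VTC2, 311 bases before the start (chrVI:131499-131504, plus strand): aaaaaaaaccCACGTGctgcttggaa
PHM6, 279 bases before the start (chrIV:1022595-1022600, minus strand): gcttcgctgaCACGTGggaggtggga
PHO81, 344 bases before the start (chrVII:958549-958554, minus strand): ggtgttatggCACGTGcgaataaggg
CACGTT was found in this window of 5 genes (PHM6, PHM8, PHO81, PHO85 and VTC3), against 16.0% of promoters, and PHO4 had neither motif. A T just before the palindrome is known to weaken binding of Pho4. Of the 12 CACGTG sites, 10 had no T just before the motif and no A just after it, which is a T before the motif on the other strand. The exceptions were the site of SPL2 361 bases before the start and the site of VTC4 113 bases before it. The share of CACGTG sites in other promoters that lack these bases was not counted, so the 10 of 12 have no comparison. These matches describe letters in a window and are not evidence of binding.

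**Figure D1:**
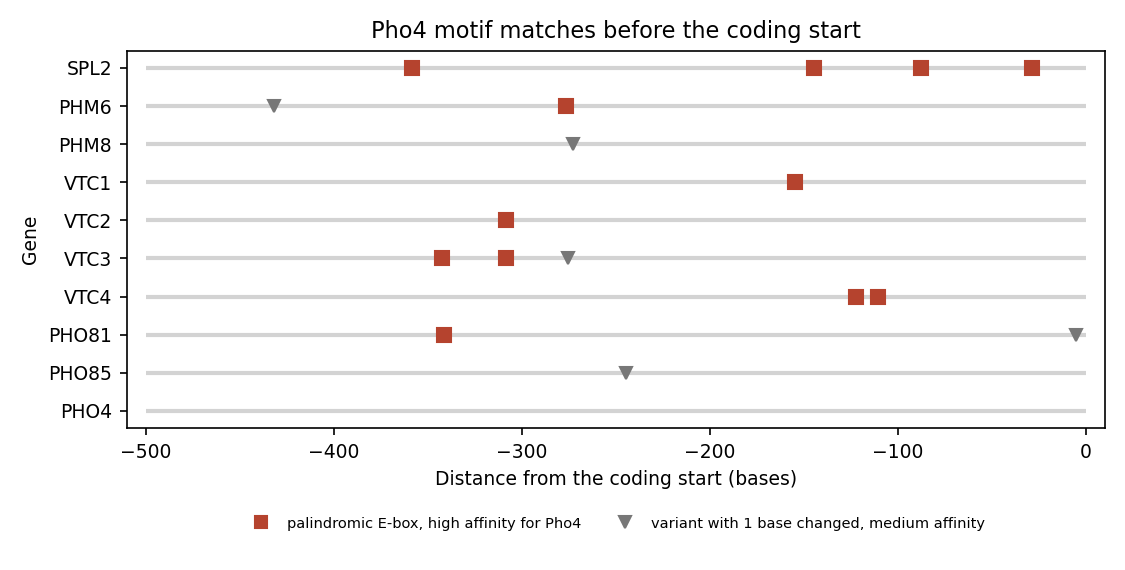
Matches to the Pho4 motifs in the 500 bases before the coding start of each gene; the x axis is the distance from the start in bases, and each row is a gene. SPL2 carries 4 palindromes, VTC3 and VTC4 carry 2 each, VTC1, VTC2, PHM6 and PHO81 carry 1 each, and PHO4 has no match of either kind.

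Reads per library totalled 24091037 to 58506447 in mcd1-1 and 22331070 to 44217331 in WT, so that a count of 0 would allow up to 0.051 to 0.134 CPM (counts per 1e+06 counts), for counting error only. The lowest count of any of the 10 genes was 227 reads, for PHM6 in mcd1-1 B. Values are CPM after TMM scaling, a correction for unequal composition of the libraries. MCD1 itself was at 286 to 378 CPM in mcd1-1 and 75.0 to 87.2 CPM in WT, which checks no label because the mutant mRNA is counted too. The 7 markers of mating type a summed to 703 to 981 CPM in mcd1-1 and 985 to 1181 CPM in WT, none of them at 0. They did not move alike. AGA2 was higher in mcd1-1, at 50.2 to 55.5 CPM against 28.5 to 43.0 CPM in WT, and the ranges of each of the others overlapped. The 4 alpha-cell markers summed to 108 to 146 CPM in mcd1-1 and 35.7 to 45.9 CPM in WT. SAG1 was at 76.6 to 105 and 22.2 to 35.5 CPM, and the pheromone gene MFALPHA1 at 4.36 to 7.08 and 0.452 to 0.953 CPM. STE3 was at 15.4 to 23.8 and 4.44 to 5.78 CPM, whereas MFALPHA2 overlapped, at 6.97 to 10.6 and 4.99 to 7.39 CPM. The part of these markers in the results below was not tested. Libraries A and B stood apart from C and D in both groups. Chi-square per degree of freedom over genes was 11.8 to 102 within these sets and 316 to 542 across them, and values within each set are therefore given beside the results. The labels say nothing of what the sets are. Less RNA per cell and fewer cells that express a gene cannot be told apart in such bulk samples.

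Of the 10 genes 6 fell in mcd1-1 and 0 rose at an adjusted p under 0.05 (edgeR's quasi-likelihood test, with Benjamini-Hochberg adjustment over the 6558 models). Of the members that were higher, 0 had an unadjusted p under 0.05, and DESeq2 and limma-voom called 0 as well. Those that fell were SPL2, PHM6, VTC1, VTC2, VTC3 and PHO85. Across all genes tested 19.7% were called lower and 20.7% higher. Among the 2440 genes with a mean of at least 100 CPM 32.5% were called lower and 7.46% higher, and 3 of the 6 members in that range were called lower. The median log2 fold change was -0.93 over the 10 genes, -0.01 over all genes and -0.31 over genes of at least 100 CPM. All 4 mcd1-1 libraries lay below all 4 WT libraries in 6 members and above them in 0, where 21.0% of all genes lay below and 22.1% above. With the replicate letter as a block 8 members fell, VTC4 and PHO81 being added, against 30.2% of all genes. The count was 4 without mcd1-1 A, since VTC2 and PHO85 were then not called. Calls were lost over all genes too, with 985 lower without mcd1-1 A against 1291 in the fit of all 8 libraries.

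**Figure D2:**
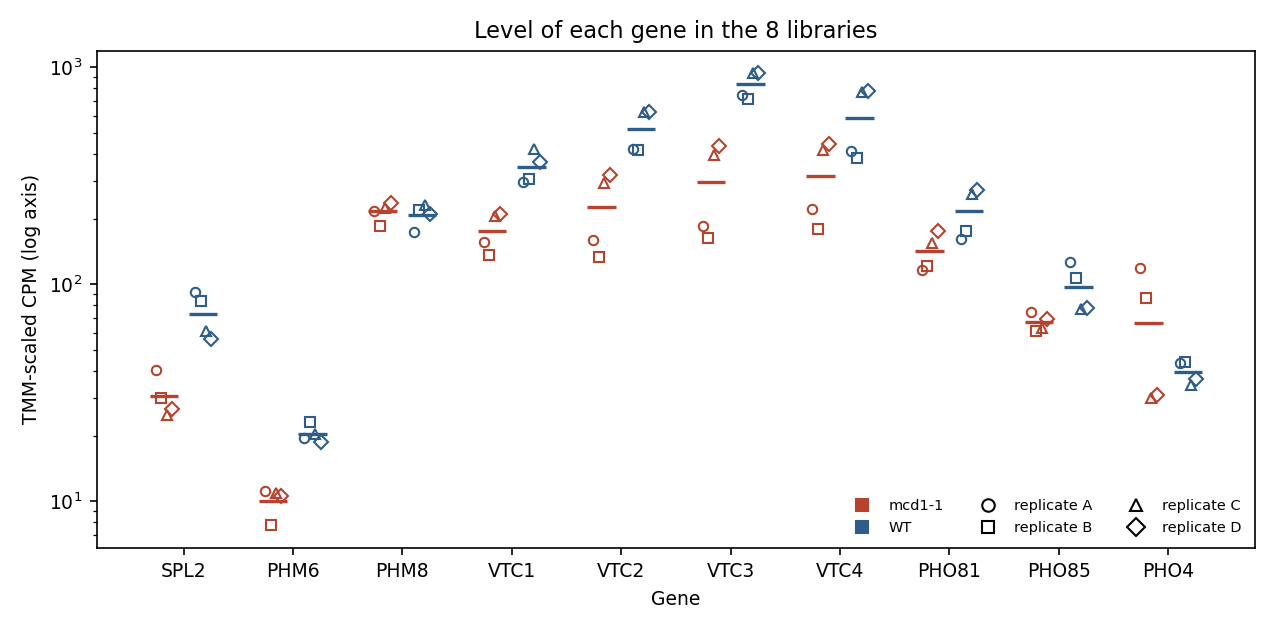
TMM-scaled CPM of each gene (log axis) in the 4 mcd1-1 and 4 WT libraries; symbols mark the replicate letter and bars the group mean. SPL2, PHM6, VTC1, VTC2, VTC3 and PHO85 have no mcd1-1 library as high as any WT library, and PHO4 is high in mcd1-1 A and B alone.

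Among the small proteins under phosphate control, SPL2 fell most. SPL2 (YHR136C, chromosome VIII, 374654 to 375100) encodes a protein that holds back the low-affinity phosphate transporters when phosphate is scarce. Its mRNA stood at 40.5, 29.8, 24.9 and 26.7 CPM in mcd1-1 A to D, against 92.4, 83.4, 61.1 and 56.2 CPM in WT A to D. Every mcd1-1 library was below the lowest WT library, and in both groups the C and D libraries were below A and B. The level was 2.40-fold lower in mcd1-1 (log2 fold change -1.27 ± 0.21, SE, adjusted p = 0.00196), and a difference printed below as a ± pair is such a log2 fold change with its SE from edgeR unless SD is named. SPL2 was called lower under each of the 20 alternative settings, at -1.38 to -0.93.

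PHM6 (YDR281C, chromosome IV, 1022007 to 1022321) encodes a small protein of unknown function that is named for its response to phosphate. It held 11.1, 7.76, 10.9 and 10.5 CPM in mcd1-1 A to D and 19.6, 23.3, 20.4 and 18.8 CPM in WT A to D. The groups did not overlap, and B was the lowest library of mcd1-1 and the highest of WT. The fall was 2.04-fold (-1.03 ± 0.16, adjusted p = 0.00135), and it too was called under all 20 alternatives. PHM8 (YER037W, chromosome V, 225889 to 226854), a phosphatase that acts on lysophosphatidic acid and on nucleotide monophosphates, was not called. Its level was 218, 186, 225 and 238 CPM in mcd1-1 A to D, and 174, 220, 232 and 212 CPM in WT A to D. The groups overlapped throughout, with a difference of 0.05 ± 0.15 (adjusted p = 0.813). Scaling by library size alone, which moves the median of all genes to 0.33, put PHM8 at 0.38 (adjusted p = 0.0467).

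VTC subunit mRNAs took a smaller part of the reads in mcd1-1. Together VTC1 to VTC4 made up 0.0788, 0.0745, 0.143 and 0.156% of all reads in mcd1-1 A to D, against 0.167, 0.160, 0.244 and 0.244% in WT A to D. Each mcd1-1 library was below each WT library, and within each group C and D were above A and B. Of the 4 genes 3 fell and VTC4 did not pass the test, though the replicate block called it.

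VTC1 (YER072W, chromosome V, 302806 to 303195), the small membrane subunit, was at 156, 136, 206 and 210 CPM in mcd1-1 A to D and at 297, 305, 422 and 367 CPM in WT A to D. All mcd1-1 values were below the lowest WT value, a fall of 1.96-fold (-0.97 ± 0.20, adjusted p = 0.00428) that was called under all 20 alternatives. VTC2 and VTC3 encode the large subunits that alternate in the complex. VTC2 (YFL004W, chromosome VI, 131810 to 134296) was at 160, 134, 293 and 321 CPM in mcd1-1 A to D and at 419, 418, 621 and 622 CPM in WT A to D. The groups did not overlap, but the mean of mcd1-1 C and D was 2.09 times that of mcd1-1 A and B. The difference was -1.20 ± 0.31 (adjusted p = 0.0135), and without mcd1-1 A it was -1.01 (adjusted p = 0.0523).

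VTC3 (YPL019C, chromosome XVI, 514511 to 517018) had the largest fold change of the 10 genes in the fit of all 8 libraries, whereas SPL2 was ahead without mcd1-1 A (-1.38, against -1.28 for VTC3) and level with it in C and D alone (-1.14 each). It held 187, 164, 396 and 436 CPM in mcd1-1 A to D, against 750, 719, 938 and 939 CPM in WT A to D. Even the highest mcd1-1 library was well under the lowest WT library, a fall of 2.83-fold (-1.50 ± 0.33, adjusted p = 0.00646). The fall was larger in A and B (-2.07 between the group means) than in C and D (-1.17), a difference that was not tested. VTC4 (YJL012C, chromosome X, 411234 to 413399) encodes the catalytic subunit that polymerises phosphate. Its level was 222, 179, 417 and 441 CPM in mcd1-1 A to D and 411, 383, 769 and 777 CPM in WT A to D. The groups overlapped because mcd1-1 C and D lay above WT A and B, whereas within each set all mcd1-1 libraries were below all WT libraries. The difference of -0.89 ± 0.36 was not called (adjusted p = 0.0760). With the replicate block it was -0.92 (adjusted p = 0.000847), and DESeq2 called it as well (adjusted p = 0.0293). Under 15 of the 20 alternatives VTC4 was not called, with an edgeR adjusted p of 0.214 without mcd1-1 B and 0.208 with library size alone.

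The proportions of the VTC subunits were then compared within each library. Per kb of coding length there were 1.16, 1.22, 1.34 and 1.35 VTC3 reads for each VTC2 read in mcd1-1 A to D, and 1.77, 1.71, 1.50 and 1.50 in WT A to D. All mcd1-1 ratios were below all WT ratios, and the groups were closer in C and D than in A and B. The log2 ratio was 0.34 ± 0.11 in mcd1-1 and 0.69 ± 0.13 in WT (SD, n = 4 each). Such a ratio does not depend on the scaling between libraries. An exact 2-sided permutation test gave p = 0.0286, the smallest that 4 against 4 libraries allow, and 0.143 after adjustment over the 5 ratios tested, which does not pass. A ratio that reaches the smallest p alone cannot pass this adjustment, so the test cannot decide about VTC3 to VTC2. VTC1 to VTC4 was 3.91, 4.23, 2.74 and 2.64 in mcd1-1 A to D and 4.01, 4.42, 3.05 and 2.62 in WT A to D. In both groups C and D were below A and B, and the genotypes overlapped (log2 difference -0.06, exact permutation p = 0.686, adjusted p = 0.857). VTC2 and VTC3 were 66.2% identical over the 940 aligned bases of their longest match, and no member had a near-identical copy or overlapped another model.

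**Figure D3:**
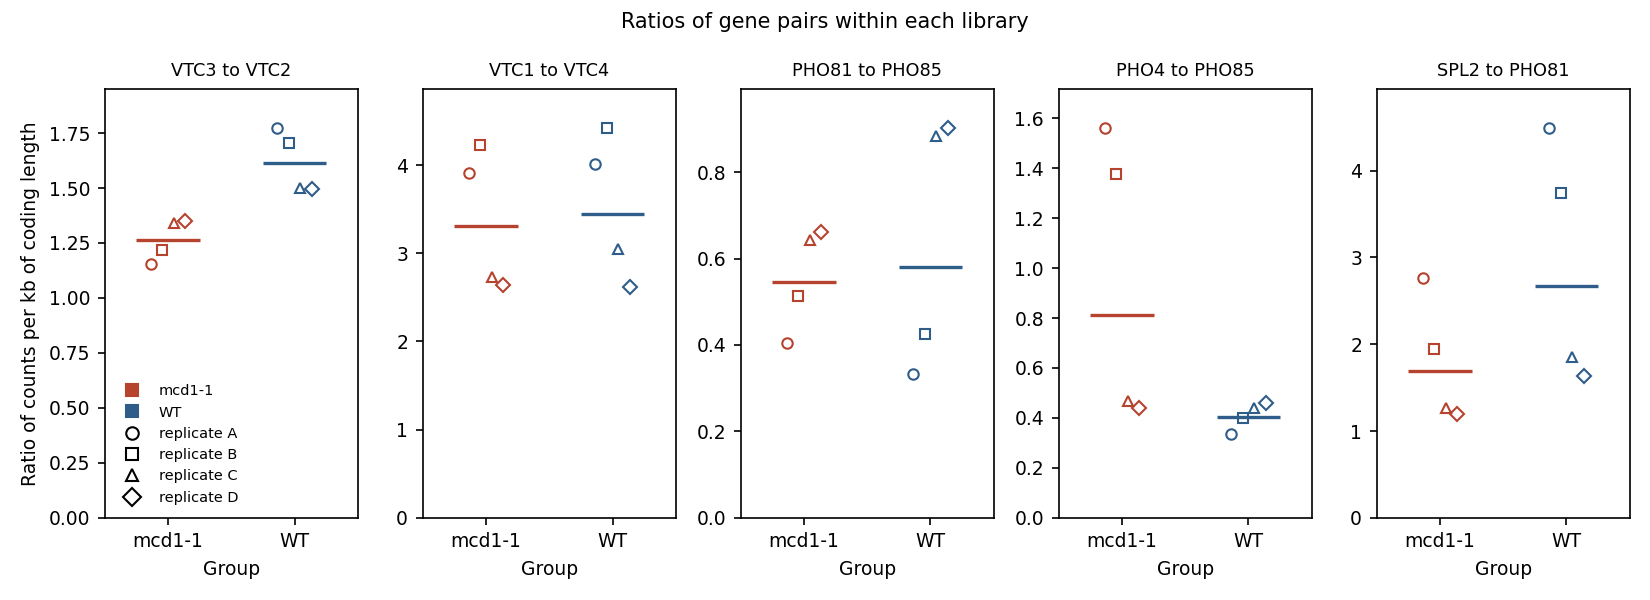
Ratios of reads per kb of coding length for 5 gene pairs within each library, mcd1-1 left of WT; symbols mark the replicate letter and bars the geometric mean. VTC3 to VTC2 is 1.16 to 1.35 in mcd1-1 and 1.50 to 1.77 in WT, and the other pairs overlap between the groups.

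In the signalling part of the pathway the kinase gene fell slightly and the inhibitor gene was at the edge of the threshold. PHO85 (YPL031C, chromosome XVI, 492018 to 493037) encodes the cyclin-dependent kinase. It was at 74.4, 61.3, 63.0 and 69.1 CPM in mcd1-1 A to D and at 127, 107, 76.7 and 78.1 CPM in WT A to D. The mcd1-1 libraries were alike, and WT C and D were only just above them. The fall was 1.45-fold (-0.54 ± 0.18, adjusted p = 0.0396). It was no longer called under upper-quartile scaling (-0.41, adjusted p = 0.128), library size alone (-0.20, 0.383) or a filter of 10 CPM in 4 libraries (-0.49, 0.0569), nor without mcd1-1 A (0.0614), B (0.113), C (0.0984) or D (0.0750) or WT A (0.0958) or B (0.0931).

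PHO81 (YGR233C, chromosome VII, 954674 to 958210), the inhibitor of Pho80-Pho85 and itself a target of Pho4, was at 116, 121, 156 and 176 CPM in mcd1-1 A to D and at 163, 176, 261 and 271 CPM in WT A to D. As for VTC4, mcd1-1 lay below WT within each set, and the pooled groups overlapped. The difference was -0.61 ± 0.22 and just missed the threshold (adjusted p = 0.0512), while the replicate block gave -0.60 (adjusted p = 0.00236). It was called lower by DESeq2 (adjusted p = 0.0199), under RLE scaling (0.0459), without WT A (0.0334) and without WT B (0.0496). Under 12 of the 20 alternatives PHO81 was not called, with an edgeR adjusted p of 0.320 with library size alone. The ratio of PHO81 to PHO85 per kb was 0.405, 0.513, 0.642 and 0.663 in mcd1-1 A to D and 0.334, 0.427, 0.884 and 0.902 in WT A to D. It spread more within WT than between the groups (log2 difference -0.09, exact permutation p = 0.857, adjusted p = 0.857).

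PHO4 (YFR034C, chromosome VI, 225020 to 225958), the transcription factor, differed most between library sets. It was at 119, 86.2, 30.1 and 31.0 CPM in mcd1-1 A to D and at 43.3, 43.9, 34.4 and 36.8 CPM in WT A to D. The A and B libraries of mcd1-1 were far above every WT library and the C and D libraries below every one, and the mean difference of 0.75 ± 0.42 was not called (adjusted p = 0.182). With A and B only, PHO4 rose by 1.23 ± 0.15 (adjusted p = 0.000188, where 34.8% of all genes were called higher). With C and D only, it fell by 0.19 ± 0.07 on the log2 scale (adjusted p = 0.0295, where 37.1% were called lower). The ratio of PHO4 to PHO85 per kb was 1.56, 1.38, 0.467 and 0.438 in mcd1-1 A to D and 0.334, 0.40, 0.438 and 0.461 in WT A to D. Only mcd1-1 A and B stood out (log2 difference 1.01, exact permutation p = 0.0857, adjusted p = 0.214).

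SPL2 and PHO81 are both targets of Pho4, and their ratio was compared for that reason. It was 2.76, 1.95, 1.26 and 1.20 per kb in mcd1-1 A to D and 4.49, 3.75, 1.85 and 1.64 in WT A to D. The groups overlapped (log2 difference -0.66, exact permutation p = 0.229, adjusted p = 0.381), although within each set both mcd1-1 libraries were below both WT libraries.

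**Figure D4:**
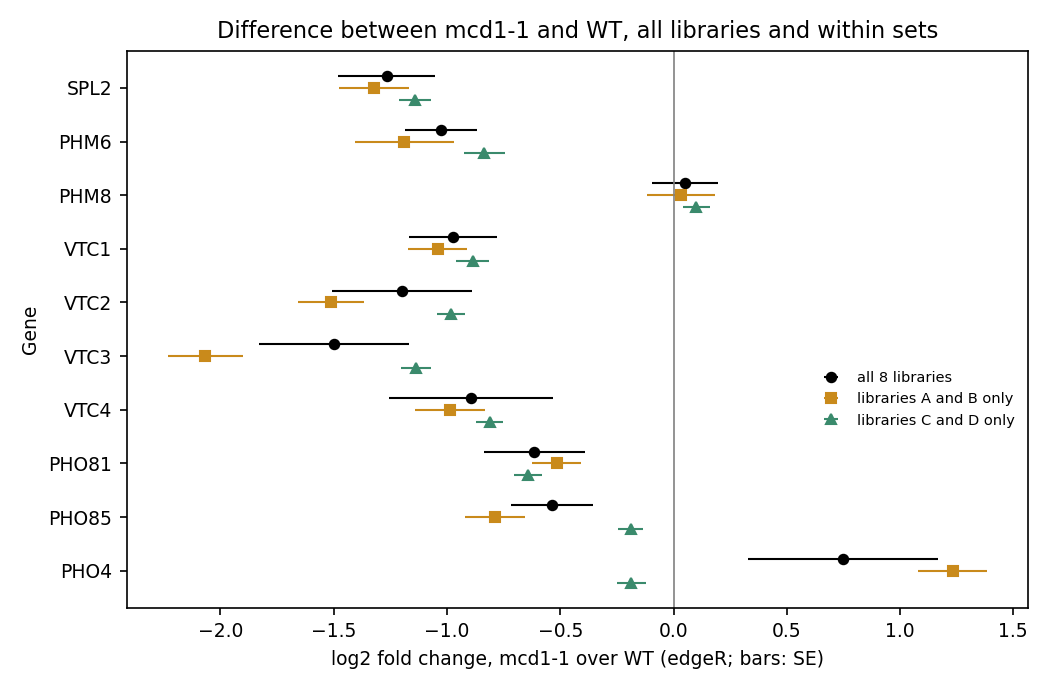
Log2 fold change of mcd1-1 over WT with its SE from edgeR for each gene (y axis), for all 8 libraries, for A and B only and for C and D only. Of the 10 genes, 8 lie to the left of 0 in all 3 fits, PHM8 lies near 0, and PHO4 lies at 1.23 with A and B and at -0.19 with C and D.

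Fitted alone, libraries A and B called 8 members lower and 1 higher, where 32.9% of all genes were called lower, and libraries C and D called 9 lower and 0 higher, where 37.1% were called lower. The 9 include PHO4. All mcd1-1 libraries were below all WT libraries in 8 members within A and B and in 9 within C and D. The share of all genes separated in this way within a set was not computed. Groups also separate more readily within a set, which holds fewer libraries. In WT, the C and D libraries held 1.95-fold the VTC4 level, 1.57-fold the PHO81 level and 1.49-fold the VTC2 level of A and B, but 0.667-fold the SPL2 level and 0.662-fold the PHO85 level. In mcd1-1 the same comparison gave 2.37-fold for VTC3 and 0.298-fold for PHO4.

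Levels of the 10 genes were ordered per kb of coding length. In mcd1-1 VTC1 was highest at 454 ± 93.8 CPM per kb, then PHM8 (224 ± 23.2), VTC4 (145 ± 61.7), VTC3 (118 ± 55.9), VTC2 (91.2 ± 37.6), PHO85 (72.9 ± 6.52), PHO4 (70.8 ± 46.5), SPL2 (68.2 ± 15.6), PHO81 (40.3 ± 8.12) and PHM6 (32.0 ± 4.96), as mean ± SD of 4 libraries. In WT it was again VTC1, at 891 ± 151, then VTC3 (333 ± 47.3), VTC4 (270 ± 101), PHM8 (217 ± 25.9), VTC2 (209 ± 47.2), SPL2 (164 ± 38.9), PHO85 (106 ± 26.3), PHM6 (65.2 ± 6.27), PHO81 (61.6 ± 15.9) and PHO4 (42.2 ± 5.03). In each group 2 of the 9 neighbouring pairs were further apart than the sum of their SDs. These were VTC1 over PHM8 and SPL2 over PHO81 in mcd1-1, and VTC1 over VTC3 and PHO85 over PHM6 in WT.

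Likeness between expression patterns was measured as the root mean square difference of centred log2 CPM over the 8 libraries. Among the members the closest pairs were VTC2 with VTC3 (0.20), VTC2 with VTC4 (0.22), and VTC1 with PHO81 and with PHM6 (both 0.24), and the furthest was VTC3 with PHO4 (1.51). Among 6038 genes with a mean of at least 10 CPM, those nearest to SPL2 were CCS1 (0.07), the copper chaperone of superoxide dismutase, HTA1 (0.13), a histone H2A gene, and RPL24B (0.14), a ribosomal protein gene. HTA1 and RPL24B have near-identical copies, so reads shared with HTA2 and RPL24A leave their values uncertain. Nearest to VTC4 were NCL1 (0.07), an RNA methyltransferase gene, YBL039C-A (0.07), a model that overlaps URA7 by 84 bases, and RPA43 (0.07), a subunit gene of RNA polymerase I. Nearest to PHO85 were CDC42 (0.05), the polarity GTPase, which overlaps the model YLR230W, POR2 (0.05), a porin gene, and CDC8 (0.06), a thymidylate kinase gene. The other members were among the genes compared, and none of them was among the 3 nearest to SPL2, VTC4 or PHO85. That the other members lay further away follows from the way the nearest genes were picked.

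Around the members, 38 other genes of phosphate metabolism were listed in 4 groups, and 7 of them fell, 4 rose and 27 were not called. Their median log2 fold change was -0.10, and the shares called can be set beside the 19.7% and 20.7% of all genes. With the replicate block 12 fell and 7 rose, where 30.2% of all genes were called lower and 29.4% higher. The balance of directions depended on the scaling, as it did over all genes. Library size alone gave 4 lower and 10 higher, where 550 of all genes were called lower and 2460 higher. Upper-quartile scaling gave 7 of each, where 915 of all genes were called lower and 1739 higher. Without mcd1-1 B 4 were lower and 4 higher, where 859 of all genes were called lower and 1207 higher. Of the 10 cyclins that bind Pho85, 2 fell and 1 rose. PHO80, the cyclin that directs Pho85 to Pho4, was at 28.7 ± 2.65 CPM in mcd1-1 and 25.2 ± 7.53 CPM in WT (SD, n = 4 each) and was not called (0.18 ± 0.21, adjusted p = 0.514). PCL9, a cyclin gene expressed at the end of mitosis and in early G1, fell to 40.3 ± 6.81 CPM in mcd1-1, against 82.8 ± 12.1 CPM in WT (SD, n = 4 each; -1.04 ± 0.16, adjusted p = 0.00137). PCL2, a G1 cyclin gene, rose (0.57 ± 0.14, adjusted p = 0.0102), and PCL6, named after its values were seen, fell (-0.49 ± 0.12, adjusted p = 0.0108), a call that was lost without mcd1-1 B (-0.40, adjusted p = 0.0549) and with library size alone (-0.15, adjusted p = 0.348).

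Genes for polyphosphate turnover and for inositol pyrophosphates, the signalling molecules that the SPX domains of the pathway read, gave 3 lower and 1 higher of 11. The vacuolar polyphosphatase gene PPN2 was at 98.7 ± 17.7 CPM in mcd1-1 and 293 ± 98.9 CPM in WT (SD, n = 4 each; -1.57 ± 0.26, adjusted p = 0.00169), and PPX1, the cytosolic exopolyphosphatase gene, was also lower (-0.78 ± 0.17, adjusted p = 0.00703). VTC5, an accessory subunit of the VTC complex, was at 69.1 ± 19.4 CPM in mcd1-1 and 57.1 ± 16.1 CPM in WT (SD, n = 4 each) and was not called (0.27 ± 0.25, adjusted p = 0.414). The other calls, named after their values were seen, were SIW14, a phosphatase of inositol pyrophosphates (-0.50 ± 0.13, adjusted p = 0.0156), and ARG82, an inositol polyphosphate kinase gene (0.82 ± 0.24, adjusted p = 0.0235). SIW14 lost its call without mcd1-1 A (adjusted p = 0.0629), without mcd1-1 B (0.0669) and with library size alone (0.344), and ARG82 without WT C (0.0517) or WT D (0.0551). The 14 genes of phosphate transport and phosphatases gave 2 lower and 1 higher, and 6 lower and 2 higher with the replicate block, to be read beside the blocked shares of all genes. PHO86, needed for the transporter Pho84 to leave the endoplasmic reticulum, fell (-0.76 ± 0.16, adjusted p = 0.00533), and PHO89, a sodium-phosphate cotransporter gene, rose (0.98 ± 0.21, adjusted p = 0.00620). PHO12, an acid phosphatase gene named after its values were seen, fell (-1.07 ± 0.33, adjusted p = 0.0274), while PHO11 was not called (-0.87 ± 0.46, adjusted p = 0.162), but PHO12 is 99.7% identical to PHO11, so both values are uncertain where reads were shared. The PHO12 call was lost without mcd1-1 A, mcd1-1 B, WT C or WT D (adjusted p = 0.0508 to 0.0940) and with library size alone (0.0713). In the last group PHO2, the homeodomain partner of Pho4, rose (0.44 ± 0.13, adjusted p = 0.0230), but not without mcd1-1 C, mcd1-1 D, WT A or WT B (adjusted p = 0.0542 to 0.0689), and PSE1, a nuclear import receptor of Pho4, was not called (-0.63 ± 0.32, adjusted p = 0.149).

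**Figure D5:**
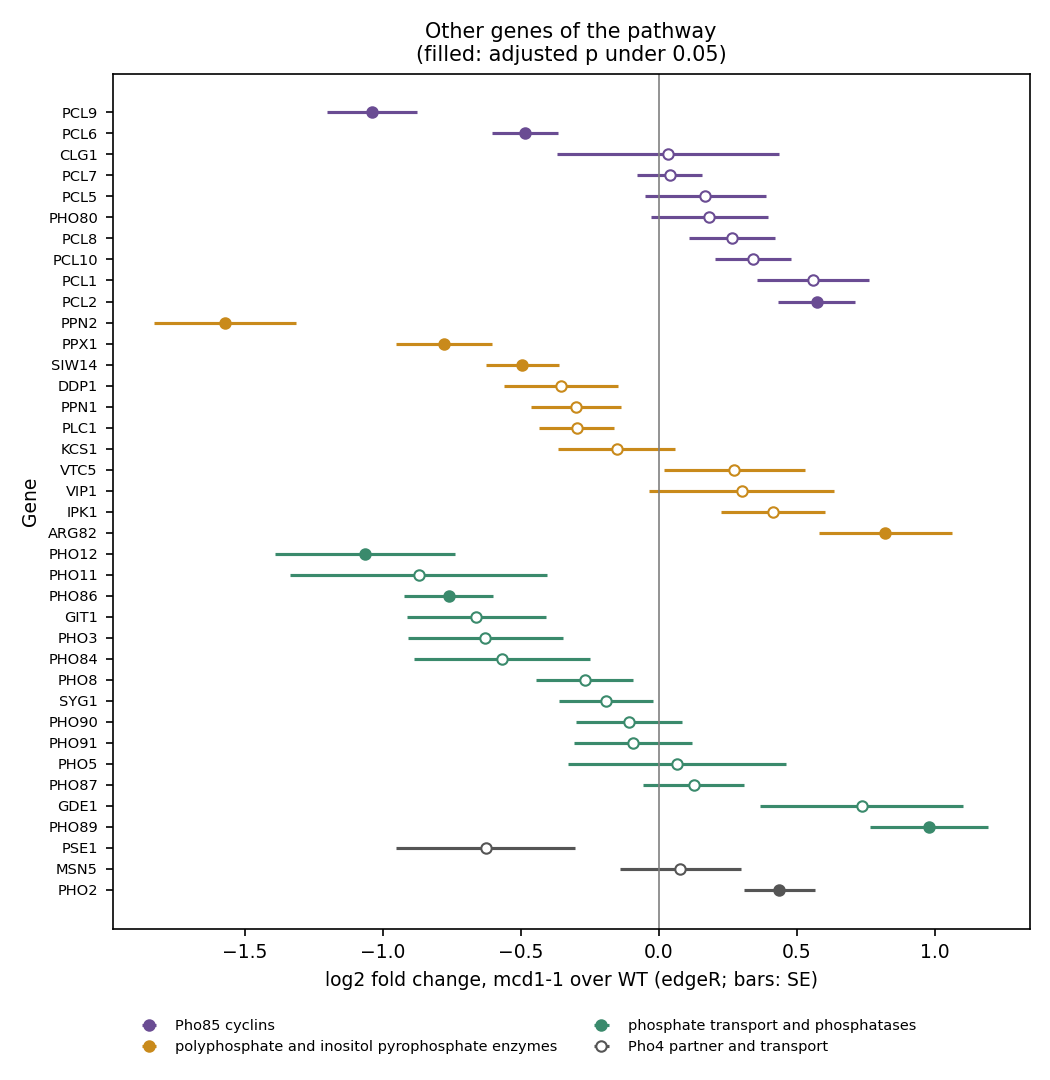
Log2 fold change of mcd1-1 over WT with its SE from edgeR for the 38 other genes of phosphate metabolism, coloured by group, with filled points for an adjusted p under 0.05. The 7 filled points left of 0 include PPN2 and PCL9, and the 4 right of 0 are PCL2, ARG82, PHO89 and PHO2.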

How the data were processed

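The authors deposited raw read counts per gene model for 8 poly(A) RNA libraries, with no normalisation. Reads were handled with STAR 2.5.3a, featureCounts 1.6.0, Picard, Trim Galore 0.4.3 and bcl2fastq 2.9 on build R64, per the submitters' processing notes. Strand and shared-read settings of the counting were not given in the sources used here. Columns were matched to samples by name. From these counts, models were kept by filterByExpr, scaled by TMM (factors 1.09 to 1.22 in mcd1-1 and 0.879 to 0.902 in WT) and fitted across all genes with genotype alone in the design, using the 2-sided quasi-likelihood test of edgeR 4.0.16. SE follows from the F statistic. The fit was tested on simulated counts that had less spread than these data and no library sets. That test therefore does not show how the fit behaves with the sets present. Alternatives were DESeq2 1.42.0, limma-voom (limma 3.58.1), other scalings and filters, a replicate or library set block, each set alone and leaving out each library. Ratios were tested by exact permutation.

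Members and lists were chosen with earlier results of these data known. The named genes were the 10 members, MCD1, the 2 genes of smallest p in each pathway list with PHO80, PHO2 and VTC5, and the 3 nearest profiles of SPL2, VTC4 and PHO85. The letters were taken to pair the samples, and deviations from the group means of same-letter libraries correlated at 0.452 to 0.633. Other letters of the same set correlated at 0.490 to 0.652 and letters across sets at -0.643 to -0.448. Same-letter libraries were thus no more alike than others of their set. The pairing comes from the counts, follows the sets and is not stated in the labels. All 10 members had the same span in the table and in RefSeq. A near-identical copy meant 90% identity over 100 bp by blastn 2.17.0.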

Additional observations from a re-analysis of the deposited data

Results flagged for a closer look

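PHO4 moved in opposite directions in the library sets: by 1.23 on the log2 scale in A and B, where both mcd1-1 libraries were above both WT libraries, and by -0.22 in C and D, where both were below, as log2 ratios of group means. The difference between the sets was not tested, and the labels do not say what divides them. In 20 groups of 4 values, 1 for each member and genotype, 0 libraries stood apart from the other 3 by Dixon's criterion. Chance flags about 1 in 20 groups where the values do not fall into sets. The criterion cannot flag 4 values that split into 2 pairs, as PHO4 in mcd1-1 did, so the 0 says nothing about such splits.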

How the results depend on the processing

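Across 20 alternatives SPL2, VTC1, VTC3 and PHM6 stayed lower and called, VTC2 lost its call once and PHO85 in 9. The number of members called lower was 4 to 9, and 4 to 6 when 1 library was left out. Members called higher were 1 with library size alone (PHM8) and 1 with A and B only (PHO4), and 0 otherwise. PHO4 turned to -0.19 with C and D only and PHM8, at -0.030 to 0.163 with 1 library left out, turned without WT A. Genes called lower and higher overall numbered 550 and 2460 with library size alone, 1978 and 1927 under the replicate block and 2241 and 2207 under the set block, against 1291 and 1359. Sets fitted alone gave 2164 and 2287 (A and B) and 2436 and 2549 (C and D). Leaving out 1 library gave 859 lower (without mcd1-1 B) to 1249 and 1163 higher (without WT B) to 1373. Upper-quartile scaling moved the median of all genes to 0.13. Among the ratios PHO81 to PHO85 turned to 0.27 with A and B only, and leaving out 1 library gave -0.36 to 0.12 for it and -0.19 to 0.059 for VTC1 to VTC4. The replicate block changed no call of a member other than VTC4 and PHO81. With the letters as a block no ratio can reach p under 0.05, because 4 pairs allow too few sign changes. Apart from the alternatives' own construction, the cause of these changes was not tested. The lowest count of a member in a library was 227.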
